A study of Mus musculus with 4 samples.

Results

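The genes described here are 36 immediate early and stress response genes, the transcripts that cells raise within minutes of a stimulus or of physical handling, together with their feedback inhibitors and a set of heat shock chaperones. The list is one of gene symbols, and its rule uses no measured value, but it was chosen with earlier results of these data known. All 36 were on the array, with 77 probe sets among them, out of 18193 named genes. A gene with several probe sets is represented by the brightest (the top mean of log2 signal over the 4 arrays). Values are linear MAS5 signals, and a floor of 55.7, set from receptor and keratin-associated genes of other tissues, marks the signal below which a value is treated as background. On 1 array or more every one of the 36 was above that floor, and 33 were above it on all 4. Fosb, Egr3 and Myc were the exceptions, and since they passed only through the arrays where they were high, their differences are bounds.

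The arrays hold conventional dendritic cells (DCs) sorted from the spleens of Cx3cr1gfp/+ C57BL/6 mice, in which green fluorescent protein replaces 1 copy of the chemokine receptor gene Cx3cr1 and marks cells in which its promoter is active. With 1 array each, the 4 groups were the CD8+ DCs with and without CX3CR1 (CD8+CX3CR1+ and CD8+CX3CR1-), the CD4+ DCs and the DN DCs, where DN usually stands for cells with neither CD4 nor CD8. Every group carried the same reporter allele, was labelled as not treated with BMP4, and went through collagenase D digestion, magnetic enrichment for CD11c and high-speed sorting of CD11c-high cells before RNA extraction. The sources used here do not give the mice's ages or number, any pooling of cells, or the order of the sorts. With 1 array per group there is no replicate and no test, so a difference below describes 2 arrays and not the populations they were drawn from. In such bulk RNA a lower signal from fewer cells expressing a gene cannot be told apart from less RNA in each cell.

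Immediate early genes are already primed for transcription in resting cells and need no new protein synthesis to be induced. Growth factor, stress and cAMP signals reach them through MAP kinases, serum response factor with its Ets-family partners, and the cAMP response element binding protein CREB. Their products are mostly transcription factors, such as AP-1 dimers of Fos and Jun proteins, the zinc finger Egr factors and the orphan nuclear receptors of the Nr4a family, and a second wave of products (phosphatases, RNA-binding proteins and inhibitors) shuts the response off. In spleen cells these transcripts are also known to rise while tissue is digested and cells are sorted; the handling of these cells was the same on all 4 arrays as far as the protocols say. DCs also use several of them in the steady state, among them Klf4 and Nr4a factors.

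The sort marker transcripts went with the titles. Cd8a was 2530.2 and 4742 on the arrays titled CD8+CX3CR1+ and CD8+CX3CR1- against 18.7 (CD4+) and 129.5 (DN), Cx3cr1 was highest on the CD8+CX3CR1+ array (894), Cd4 was highest on the CD4+ array (564), and the CD11c gene Itgax was between 3271 and 6415. Of the transcripts that define CD8 DCs, Xcr1 was 519 on the CD8+CX3CR1- array and under the floor on the other 3, the CD8+CX3CR1+ array included, and Irf8 was 1409 on the CD8+CX3CR1+ against 13285 on the CD8+CX3CR1- array. For 2 of the 4 arrays, titled CD8+CX3CR1- and DN, the field for the DC type names the neighbouring subset in place of that in the title, and groups follow the titles. The Gapdh 3'/5' signal ratio, which rises as RNA integrity falls, was highest on the CD4+ array (11.8) and lowest on the DN array (7.56), with 8.98 and 8.33 on the CD8+CX3CR1+ and CD8+CX3CR1- arrays. The CD4+ array also had the most probe sets above the floor, at 47.6% against 41.0% to 42.5%.

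Across the 36 genes, the CD8+CX3CR1+ array carried the lowest signal and the DN array the highest more often than other arrays did. On the CD8+CX3CR1+ array 19 of the 36 genes had their lowest signal (52.8%), where 15.4% of all 12608 detected genes had theirs. These 19 included Fos, Atf3, Egr1, Egr2, all 3 Nr4a genes, all 3 dual-specificity phosphatase genes, Btg1 and Btg2. On the CD8+CX3CR1- array 10 genes were lowest (background 22.0%), 3 were lowest on CD4+ (18.9%) and 1 on DN (14.3%), and for the other 3, the genes that fell under the floor, the lowest place was tied. In the other direction 16 genes were highest on the DN array (44.4%, background 18.1%) and 10 on CD8+CX3CR1- (26.8%). On CD4+ 7 were highest (32.4%), and on CD8+CX3CR1+ 3 (22.6%). These counts include Myc (DN), Fosb (CD4+) and Egr3 (CD8+CX3CR1+), which passed the floor only through the arrays where they were high. The exceptions on the CD8+CX3CR1+ array, highest there, were Jun, Klf4 and the barely detected Egr3. The background holds many ties at the floor, since 61.6% of detected genes lay above it on all 4 arrays against 91.7% of these 36. With signals under the floor left as they are, 21 of the 36 genes were lowest on the CD8+CX3CR1+ array against 23.0% of detected genes.

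**Figure D1:**
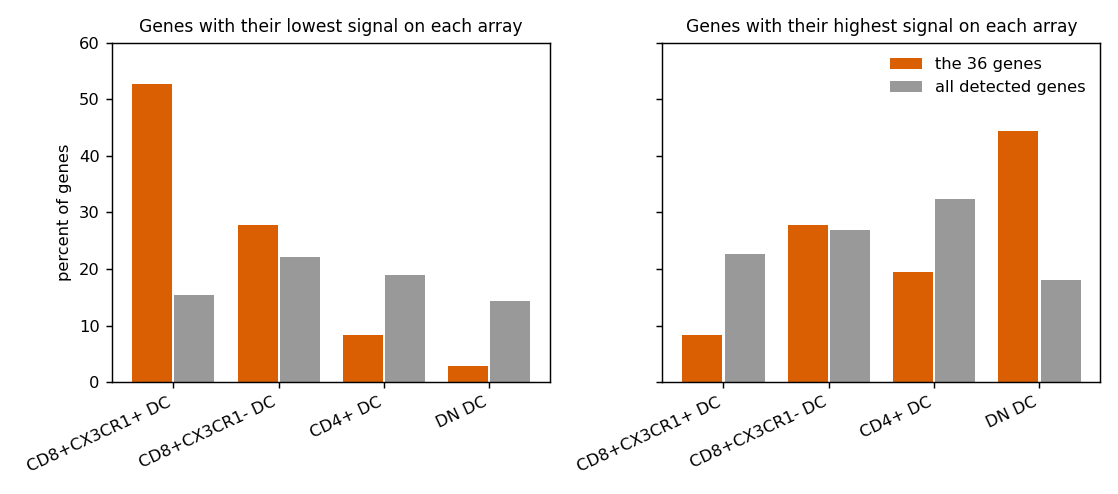
Share of genes, in percent, whose lowest (left) or highest (right) signal fell on each array, for the 36 genes and for all 12608 detected genes; ties at the floor are left out of the bars. The bar of the 36 genes reaches 52.8% for the lowest signal on the CD8+CX3CR1+ array and 44.4% for the highest signal on the DN array.

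This order depended in part on the scaling of the arrays. Scaling to an equal median signal lowers the CD4+ array by 0.28 to 0.35 (log2) against the others for genes above the floor on all arrays. Under it the count lowest on the CD8+CX3CR1+ array was 15 (background 9.75%), because Fos, Dusp1, Nr4a1 and Klf6 had their lowest value on the CD4+ array instead. With quantile normalization the count was 18, Hspa8 being lowest on the DN array. The count highest on the DN array was 16 under either. Of the 19 genes, 10 have no other probe set above the floor. For the other 9, 12 of 20 further probe sets were also lowest on the CD8+CX3CR1+ array. The DN array, on which 16 of the 36 genes peaked, was also the array with the lowest Gapdh 3'/5' ratio. The actin 3'/5' ratio did not single it out, at 2.32 (CD8+CX3CR1+), 1.79 (CD8+CX3CR1-), 2.86 (CD4+) and 2.23 (DN). The part of RNA integrity in the pattern was not tested.

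Among the AP-1 genes, Fos measured 2845 (CD8+CX3CR1+), 4875 (CD8+CX3CR1-), 3084 (CD4+) and 5393 (DN). The arrays thus fell into a lower pair (CD8+CX3CR1+ and CD4+) and a higher pair, 1.90-fold apart at the extremes; which array of the lower pair was the lower one turned with equal-median scaling. Its dimer partner Jun ran differently. Jun measured 327 (CD8+CX3CR1+), 75.8 (CD8+CX3CR1-), 196 (CD4+) and 288 (DN), so that the CD8+CX3CR1- array stood apart as low. The extremes were 4.31-fold apart, but the other Jun probe set gave 216, 148, 186 and 192 in the same order, the same lowest and highest array at a difference of 1.46-fold. Fosl2, which encodes the AP-1 subunit Fra-2, was also lowest on the CD8+CX3CR1- array. It had 274.5 (CD8+CX3CR1+), 134 (CD8+CX3CR1-), 314 (CD4+) and 647 (DN), a 4.81-fold range. Its weaker probe set stayed near or under the floor, at 5.3 to 59.6, and gives no second measure of this range.

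Junb and Jund, whose products form AP-1 dimers with lower transforming activity than Jun, peaked on the array where Jun was lowest. Junb measured 236 (CD8+CX3CR1+), 381 (CD8+CX3CR1-), 328 (CD4+) and 331 (DN), a narrow range of 1.61-fold. Jund was 930.0, 1362.5, 587.5 and 864 in that order, with the CD4+ array lowest. Atf3, a stress-induced factor that represses many inflammatory genes in DCs and macrophages, showed the widest gap of the CD8+CX3CR1+ array from all others among the AP-1 genes. It was 158 there against 461 (CD8+CX3CR1-), 428 (CD4+) and 515.5 (DN), and those 3 lay within a narrow band. The ratios to the CD8+CX3CR1+ array were 2.93-fold, 2.71-fold and 3.27-fold. Fosb was close to background on every array, at 32.2, 62.1, 104 and 49.5.

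**Figure D2:**
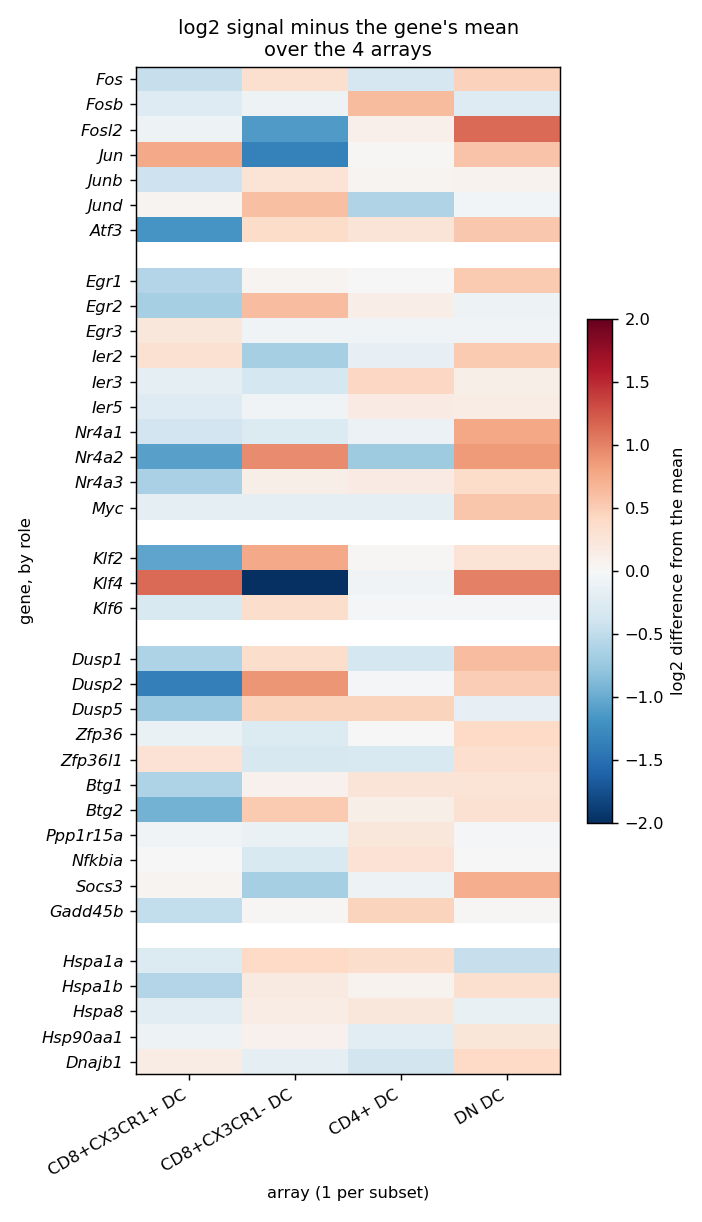
log2 signal of each gene, with values under the floor raised to it, minus that gene's mean over the 4 arrays (red above, blue below; the scale ends at 2 either way). The CD8+CX3CR1+ column is blue for most Egr, Nr4a, Dusp and Btg genes, and Klf4, Jun and Fosl2 are blue in the CD8+CX3CR1- column.

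The Nr4a genes encode orphan nuclear receptors that act without a known ligand and are induced by antigen receptor, cAMP and inflammatory signals. Nr4a2 measured 479 (CD8+CX3CR1+), 1966 (CD8+CX3CR1-), 626 (CD4+) and 1835 (DN). As with Fos, the CD8+CX3CR1+ and CD4+ arrays formed the low pair, and here the pairs were well separated. The CD8+CX3CR1+ array was 4.11-fold below the CD8+CX3CR1- array and 3.83-fold below the DN array, and the CD4+ array was 3.14-fold and 2.93-fold below the same arrays. All 5 further Nr4a2 probe sets above the floor were lower on the CD8+CX3CR1+ than on the CD8+CX3CR1- array, by 1.31-fold to 6.17-fold, counting values under the floor as the floor. Against the DN array 4 further probe sets could be compared, of which 3 were lower on the CD8+CX3CR1+ array. Nr4a1, the gene of Nur77, was 624.5, 677, 754 and 1401.5 in the order CD8+CX3CR1+, CD8+CX3CR1-, CD4+ and DN, so that only the DN array stood out. Nr4a3 was 1177 on the CD8+CX3CR1+ array against 2013, 2071 and 2383.5 on the others, with the CD8+CX3CR1+ array standing out as low.

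Egr1, a zinc finger factor induced through serum response factor, measured 324 (CD8+CX3CR1+), 501 (CD8+CX3CR1-), 485.5 (CD4+) and 694 (DN). Egr2 was weaker, at 58.2, 142, 101.5 and 86.0 in that order, with the first value just above the floor, so that its 2.44-fold range is close to a bound. Its other probe set, at 9.3 to 58.5, was near or under the floor. Egr3 was above the floor on the CD8+CX3CR1+ array alone, at 69.0. Myc was above it on the DN array alone, at 92.6. Among the genes named for early induction, Ier2 was 626, 318, 453 and 725 in that order, lowest on the CD8+CX3CR1- array and 2.28-fold higher on the DN array. Ier3, which encodes a survival factor, lay between 109 and 185, and Ier5 between 1141 and 1528.

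The 3 Krüppel-like factors took different courses. Klf4, a zinc finger factor needed for the development of some CD11b-positive DCs, had the widest range of the 36 genes. It measured 1103 (CD8+CX3CR1+), 121 (CD8+CX3CR1-), 477 (CD4+) and 1008 (DN). The CD8+CX3CR1- array was low and the CD8+CX3CR1+ and DN arrays were about level, with the CD4+ array between. The CD8+CX3CR1+ array was 9.10-fold, and the DN array 8.32-fold, above the CD8+CX3CR1- array. The second probe set gave 259, 71.1, 242 and 180 in the same order. It had the same lowest array, with differences of 3.64-fold and 2.54-fold, but it put the CD4+ array above the DN array, where the brighter probe set had the CD4+ array 2.11-fold below. Klf2, a factor known for holding lymphocytes and myeloid cells in a quiescent state, was 198, 697, 418 and 499, thus lowest where Klf4 was highest and highest where Klf4 was lowest. The CD8+CX3CR1- array was 3.52-fold above the CD8+CX3CR1+ array for Klf2. Klf6 was between 399 and 625, with the same lowest and highest array as Klf2 except under equal-median scaling, where the CD4+ array was lowest. Of its 3 other probe sets above the floor, 1 was lowest on the CD8+CX3CR1+ array. Another was lowest on the DN array, and the third ran the other way, at 138.9, 92.0, 115.2 and 163.2 in the same order.

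**Figure D3:**
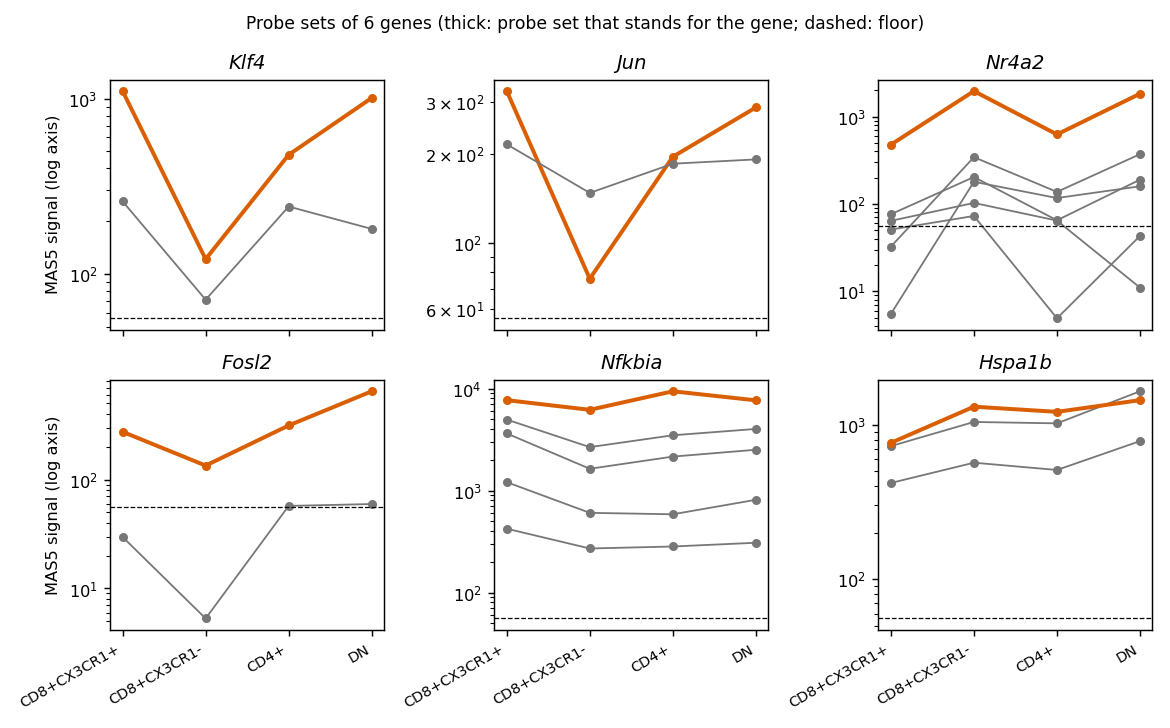
MAS5 signal (log axis) on the 4 arrays for every probe set of 6 genes; lines join the values of a probe set and do not imply an order of the arrays, the thick line is the probe set that stands for the gene, and the dashed line is the floor. Both Klf4 probe sets dip on the CD8+CX3CR1- array, all 6 Nr4a2 probe sets are lower on the CD8+CX3CR1+ than on the CD8+CX3CR1- array, and the brightest Nfkbia probe set does not share the peak on the CD8+CX3CR1+ array of the other 4.

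Feedback inhibitors made up 11 of the genes. The dual-specificity phosphatases, which remove the activating phosphates from MAP kinases, were lowest on the CD8+CX3CR1+ array. Dusp1, which acts mainly on p38 and JNK, measured 2619.5 (CD8+CX3CR1+), 5086 (CD8+CX3CR1-), 3139.7 (CD4+) and 6106 (DN). It had the same low and high pairs as Fos, and its lowest array was likewise the CD4+ array under equal-median scaling. Dusp2, a nuclear phosphatase of activated leukocytes, was 106, 502, 268 and 381.5 in that order. Here the CD8+CX3CR1+ array stood alone as low, 4.76-fold below the CD8+CX3CR1- array, 2.54-fold below the CD4+ array and 3.61-fold below the DN array, and no second probe set exists to check this. Dusp5, which acts on ERK in the nucleus, was 98.9 against 224, 223 and 147.

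Btg1 and Btg2 encode antiproliferative proteins that recruit the deadenylase complex to mRNA. Btg2 measured 947 (CD8+CX3CR1+), 2601 (CD8+CX3CR1-), 1963 (CD4+) and 2247 (DN), the last 3 well above the first. The ratios were 2.75-fold, 2.07-fold and 2.37-fold, and the second probe set gave 284, 709.5, 754.5 and 529, again with the CD8+CX3CR1+ array lowest. Btg1 was 1191 against 1936, 2179.7 and 2207 in the same order. Both of its further probe sets also had their lowest value on the CD8+CX3CR1+ array. Zfp36 and Zfp36l1 encode proteins that bind AU-rich elements and speed the decay of cytokine mRNA. They did not share this pattern, with Zfp36 between 505 and 809 and Zfp36l1 between 665.5 and 1046.5, the CD8+CX3CR1- array lowest and the DN array highest for each. Under equal-median scaling the CD4+ array was lowest for each and the CD8+CX3CR1+ array highest for Zfp36l1. The weaker Zfp36l1 probe set, at 58.4, 90.9, 73.4 and 30.7, had the opposite order at the extremes, with the CD8+CX3CR1- array highest and the DN array lowest, and averaging the probe sets cut the range of Zfp36l1 from 0.65 to 0.14 (log2).

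Nfkbia, the gene of the NF-kB inhibitor IkBa, measured 7693 (CD8+CX3CR1+), 6186 (CD8+CX3CR1-), 9396 (CD4+) and 7664 (DN), within 1.52-fold. Its 4 other probe sets were all highest on the CD8+CX3CR1+ array, as was the brightest one under quantile normalization and under equal-median scaling, and for 3 of the 4 the CD8+CX3CR1- array was lowest. Socs3, an inhibitor of STAT3 signalling, was 157, 95.1, 141 and 250.4 in that order, and its further probe sets stayed between 17.3 and 80.8. Gadd45b, a stress sensor that activates p38, was 584, 831, 1110.5 and 831, lowest on the CD8+CX3CR1+ array and highest on the CD4+ array at each of its probe sets above the floor. Ppp1r15a, the gene of GADD34, which reverses the block of translation under stress, lay between 337 and 432.

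By the brightest probe set, none of the 5 heat shock genes was as much as 2-fold apart on any pair of arrays, and their ranges ran from 1.37-fold to 1.89-fold. Weaker probe sets passed 2-fold for Hspa1b (2.26-fold, DN above CD8+CX3CR1+), Hspa8 (2.12-fold, CD8+CX3CR1- above CD4+) and Dnajb1 (2.08-fold, DN above CD4+). Hspa8, a constitutive Hsp70, was between 12791 and 17638.5, within 1.38-fold. Hsp90aa1, the inducible Hsp90, was between 1279.6 and 1757, and the chaperone gene Dnajb1 between 1604 and 2728. Each was lowest on the CD4+ array and highest on the DN array. The inducible Hsp70 genes Hspa1a and Hspa1b are near-identical copies, so that probes can take up the transcripts of each. The probe set named for Hspa1a gave 439 (CD8+CX3CR1+), 701 (CD8+CX3CR1-), 676 (CD4+) and 385 (DN). The 3 probe sets named for Hspa1b were highest on the DN array instead, the brightest with 763, 1307, 1209.9 and 1440.2 in the same order. The opposite placing of the DN array by the probe sets of these copies is therefore uncertain.

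Pair by pair, 5 of the 36 genes were at least 4-fold apart in some pair (13.9%, against 4.66% of detected genes), and 17 were at least 2-fold apart (47.2%, against 28.4%). The pairs share arrays and are not independent of each other. Raising signals to the floor narrows ranges, and 61.6% of detected genes lay above it on all 4 arrays against 91.7% of the 36. Between the CD8+CX3CR1+ and CD8+CX3CR1- arrays 4 genes were called at 4-fold (2.82% of detected genes were), Klf4 and Jun higher and Dusp2 and Nr4a2 lower on the CD8+CX3CR1+ array, and with quantile normalization Jun was at 1.96 (log2), short of 4-fold, and the split was 1 higher and 2 lower. At 2-fold, 3 were higher (background 7.72%), the third being Fosl2, and 7 lower (5.81%), adding Egr2, Atf3, Dusp5, Btg2 and Klf2. Fosl2 was short of 2-fold with quantile normalization (0.90, log2) and with averaged probe sets (0.52). Egr2 was short of it with the floor at the 95th percentile (-0.96) and with averaged probe sets (-0.64). The second probe set of each gene was under the floor on both arrays, so averaging shrinks the difference and gives no second measure. The median over the 36 genes was -0.44 (log2), against 0 over all detected genes. Where a gene had several probe sets, their differences had a median standard deviation of 0.36 in this pair, which measures probe error alone.

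Between the CD8+CX3CR1+ and DN arrays none of the 36 genes reached 4-fold (background 0.412%). At 2-fold, 10 were lower in the CD8+CX3CR1+ DCs (2.93%), and higher were 0 (2.97%). The 10 were Fosl2, Egr1, Atf3, Dusp1, Dusp2, Btg2, the 3 Nr4a genes and Klf2. The median was -0.52 against 0. In all, 29 of the 36 (80.6%) had a lower signal on the CD8+CX3CR1+ array, as had 41.5% of detected genes. The background again holds ties at the floor. With signals under the floor left as they are, 30 of the 36 were lower, against 49.0% of detected genes. Among the 29 is Myc, which passed the floor on the DN array alone. That count was 28 with quantile normalization and 27 with equal-median scaling, under which Nr4a3, at -0.97, was just short of 2-fold. With averaged probe sets Nr4a3 was at -0.34 and Fosl2 at -0.67. The other Nr4a3 probe sets were under the floor on every array, and the other Fosl2 one near or under it. Averaging with them shrinks the difference and gives no second measure.

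Between the CD8+CX3CR1+ and CD4+ arrays no gene reached 4-fold either (0.769%). At 2-fold, 5 genes were lower in the CD8+CX3CR1+ DCs (4.89%), Atf3, Dusp2, Dusp5, Btg2 and Klf2, and 1 was higher (4.47%), Klf4. The median was -0.34, with 26 genes lower and 9 higher, but this balance rested on the scaling, since equal-median scaling gave 18 lower and 17 higher and a median of -0.03 against 0.18 over all detected genes. Of the 5 lower genes, Atf3 and Dusp2 stayed at least 2-fold lower under it. Klf4 was at 0.65 with averaged probe sets, short of 2-fold.

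The CD8+CX3CR1- array lay near the CD4+ array on balance. No gene was 4-fold apart (2.98%), 2 passed 2-fold upward (Nr4a2 and Jund, higher in the CD8+CX3CR1- DCs, background 6.78%) and 3 downward (Klf4, Jun and Fosl2, 9.11%), shares below those of all detected genes, with a median of 0. Equal-median scaling moved that median to 0.32, with 24 genes higher and 10 lower on the CD8+CX3CR1- array, and left Fosl2 short of 2-fold. With averaged probe sets Fosl2 (-0.63), Jun (-0.85) and Jund (0.51) were short of it, the second probe sets of Fosl2 and Jund being near or under the floor. Against the DN array, 2 genes were called at 4-fold, Klf4 and Fosl2, each lower on the CD8+CX3CR1- array (2.02%). At 2-fold, 6 were lower (6.17%), also Jun, Ier2, Nr4a1 and Socs3, and 0 higher (4.75%), with a median of -0.15. The Socs3 call rests on a probe set that may cross-hybridise: the difference was 0 without such probe sets and -0.64 with averaged ones. The probe set then left lay under the floor on both arrays (22.2 and 46.2), so it gives no second measure. Nr4a1 was at -0.98 with equal-median scaling. Between the CD4+ and DN arrays 0 genes were called at 4-fold (0.254%), 3 were at least 2-fold lower on the CD4+ array (Fosl2, Nr4a2 and Klf4, 3.23%) and 0 higher (4.34%). With averaged probe sets all 3 were short of 2-fold, Fosl2 at -0.55, Nr4a2 at -0.79 and Klf4 at -0.33, and Fosl2 was at -0.99 with quantile normalization. The median was -0.26, and -0.54 with equal-median scaling.

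**Figure D4:**
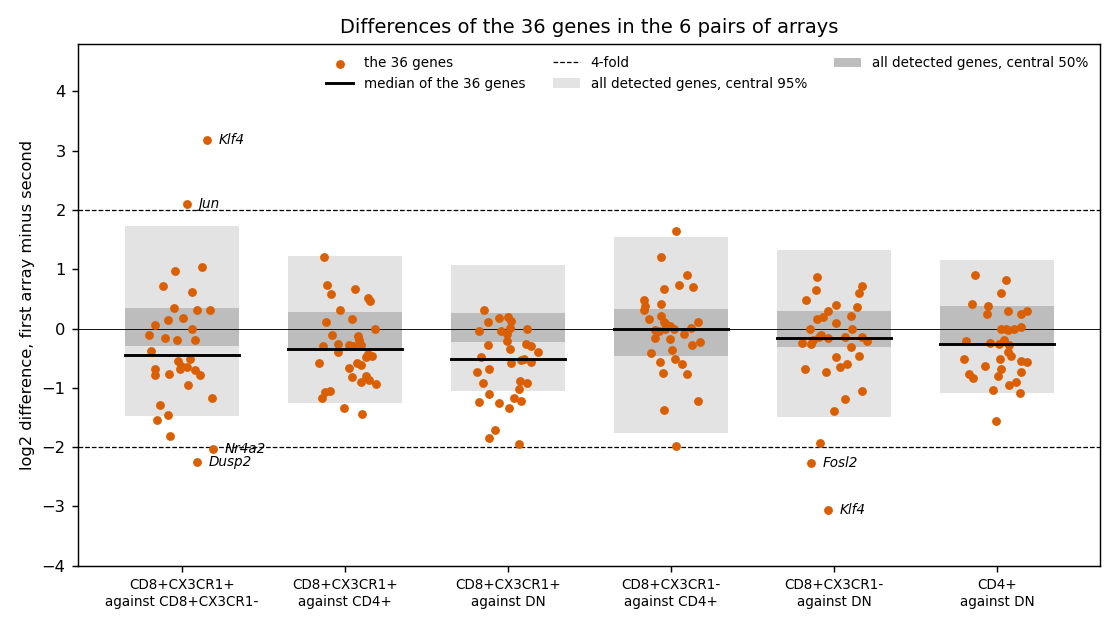
log2 difference of each of the 36 genes (points) in the 6 pairs of arrays, first array minus second, over the central 95% and central 50% of all detected genes (light and dark grey); the black line is the median of the 36 genes and the dashed lines mark 4-fold. Klf4, Jun, Nr4a2 and Dusp2 in the first pair and Klf4 and Fosl2 in the fifth lie past 4-fold, and the medians lie at -0.44, -0.34, -0.52, 0, -0.15 and -0.26.

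Promoter sequence was looked at because many of the 36 genes were low together on the CD8+CX3CR1+ array. RefSeq windows of 250 bases before the start site (assembly GRCm38.p6) were on hand for 30 of the 36 genes, and each motif was searched on both strands, except the TATA box TATAAA, on the gene's strand. The core of the cAMP response element (CRE), TGACG, stood in 16 of the 30 genes (53.3%) and in 19.8% of all 27025 genes with a window. Of these 16, 12 were among the genes lowest on the CD8+CX3CR1+ array, and of the 14 without it 5 were. This split depended on the scaling. With equal-median scaling Fos, Dusp1 and Nr4a1, which hold the core, and Klf6, which does not, were lowest on the CD4+ array instead. Whether the core goes with a low signal was not tested. The windows of the 30 genes were also richer in G and C (median 64.8% against 52.4%). They were richer in the CG pair that the core contains (median 19 against 6), and the share of genes holding the core was not set against windows of like composition. The full element TGACGTCA, which holds the core on each strand, stood in Btg2, Dusp1 and Ppp1r15a (10.0% against 1.77%). The CArG box of serum response factor stood in Dusp5, Egr2 and Zfp36 (10.0% against 1.62%). Egr1, Egr3, Ier2, Myc, Hspa8 and Hsp90aa1 had no window and could not be searched. In Fos and the other genes, sites more than 250 bases before the start were not searched. NF-kB sites stood in 8 genes (26.7% against 8.23%), and the AP-1 site TGANTCA in Zfp36l1 alone (3.33% against 7.82%). Of the heat shock elements, GAANNTTC stood in Fosl2, Hspa1a, Hspa1b and Jun (13.3% against 7.73%) and TTCNNGAA in Egr2 (3.33% against 8.12%), while the TATA box stood in 4 genes (13.3% against 8.94%). A match is a run of letters and not a shown binding site.

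The windows of 6 genes are printed to show how the letters lie in genes of opposite pattern, 5′ to 3′ on the gene's strand and ending at the base before the start, with CRE cores in capitals and, in Jun, the heat shock element. Nr4a2 (chr2:57124004-57124253, minus strand), Btg2 (chr1:134079156-134079405, minus strand) and Dusp1 (chr17:26508473-26508722, minus strand) hold the core and were lowest on the CD8+CX3CR1+ array. Dusp2 (chr2:127335909-127336158, plus strand) had the same pattern and holds none of these motifs. Klf4 (chr4:55532476-55532725, minus strand) and Jun (chr4:95052223-95052472, minus strand) were highest on that array.
Nr4a2: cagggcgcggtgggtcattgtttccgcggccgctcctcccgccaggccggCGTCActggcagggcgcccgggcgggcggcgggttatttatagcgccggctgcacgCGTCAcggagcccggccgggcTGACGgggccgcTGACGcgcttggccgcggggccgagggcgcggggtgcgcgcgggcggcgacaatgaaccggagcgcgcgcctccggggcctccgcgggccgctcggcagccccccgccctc
Btg2: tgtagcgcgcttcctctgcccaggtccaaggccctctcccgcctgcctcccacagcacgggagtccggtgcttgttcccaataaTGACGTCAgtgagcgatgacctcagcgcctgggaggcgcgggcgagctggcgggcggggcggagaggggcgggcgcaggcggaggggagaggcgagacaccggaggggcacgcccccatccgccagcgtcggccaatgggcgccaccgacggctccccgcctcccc
Dusp1: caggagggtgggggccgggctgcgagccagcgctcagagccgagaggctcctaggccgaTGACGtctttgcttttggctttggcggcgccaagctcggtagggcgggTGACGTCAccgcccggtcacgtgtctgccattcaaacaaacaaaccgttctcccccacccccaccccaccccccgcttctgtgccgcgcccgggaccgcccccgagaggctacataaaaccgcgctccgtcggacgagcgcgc
Dusp2: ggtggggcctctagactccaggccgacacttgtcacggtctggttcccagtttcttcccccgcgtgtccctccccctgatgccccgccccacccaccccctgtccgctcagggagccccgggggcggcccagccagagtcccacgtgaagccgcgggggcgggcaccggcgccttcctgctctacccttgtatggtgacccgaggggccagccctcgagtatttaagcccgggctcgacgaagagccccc
Klf4: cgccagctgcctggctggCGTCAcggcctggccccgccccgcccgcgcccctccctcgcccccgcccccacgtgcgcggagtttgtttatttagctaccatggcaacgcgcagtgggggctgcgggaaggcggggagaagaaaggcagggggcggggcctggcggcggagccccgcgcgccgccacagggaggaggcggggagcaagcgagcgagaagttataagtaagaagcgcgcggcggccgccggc
Jun: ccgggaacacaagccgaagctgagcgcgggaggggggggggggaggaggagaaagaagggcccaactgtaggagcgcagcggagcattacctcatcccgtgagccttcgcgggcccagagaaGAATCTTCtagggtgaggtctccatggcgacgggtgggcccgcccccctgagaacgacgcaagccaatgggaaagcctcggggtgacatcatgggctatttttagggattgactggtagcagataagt
Nr4a2 carries 4 CRE cores, Btg2 a full CRE, Dusp1 a full CRE and a further core, and Klf4 a core 232 to 228 bases before its start. The Hspa1a and Hspa1b windows differ at 3 of 250 bases.

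A list of 68 related genes, chosen by function, covered upstream regulators, other AP-1 and ATF members, other induced factors, other feedback inhibitors and other chaperones. Of these 62 were named on the array and 57 detected. At least 4-fold apart in some pair were 7 of the 57, as were 4.66% of all detected genes. For 4 of the 7 the CD8+CX3CR1- array was the low one, as it was for 22.0% of all detected genes. That share covers genes of any range, and the share among genes 4-fold apart was not counted. Pairs with the CD8+CX3CR1- array held more such genes (2.82%, 2.98% and 2.02% of detected genes) than the other pairs (0.769%, 0.412% and 0.254%). Ddit4, an inhibitor of mTORC1 induced by stress and glucocorticoids, measured 1482 (CD8+CX3CR1+), 86.7 (CD8+CX3CR1-), 1824 (CD4+) and 1376 (DN), a range of 21.0-fold. Elk3, an Ets-family partner of serum response factor, was 363, under the floor, 283 and 296 in that order, a range of at least 6.51-fold. Cebpd was 354, under the floor, 173 and 245, at least 6.36-fold, and Relb, a subunit of the alternative NF-kB pathway, 2265, 631, 3119 and 1782. In the opposite sense the AP-1 repressor gene Jdp2 was 102, 678.5, 292 and 343, and the kinase gene Sgk1 203.5, 917, 269 and 553, each lowest on the CD8+CX3CR1+ array and highest on the CD8+CX3CR1- array, as Dusp2 and Klf2 were. Rgs1, a brake on chemokine receptor signalling, was 625 on the CD8+CX3CR1+ array against 1918.5, 2641 and 2458.5.

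Pair by pair, the related genes were as follows. Between the CD8+CX3CR1+ and CD8+CX3CR1- arrays, 8 of the 57 passed 2-fold upward (7.72% of detected genes did) and 7 downward (5.81%), and the median was 0. Against the DN array, 5 passed 2-fold with the CD8+CX3CR1+ array lower (2.93%) and 0 with it higher (2.97%), with a median of -0.19. The 36 genes had a median of -0.52 in that pair, and the difference between the lists was not tested. A shift below the DN array was not particular to the CD8+CX3CR1+ array. The median was -0.24 for CD8+CX3CR1- against DN, where 7 related genes passed 2-fold downward (6.17%) and 3 upward (4.75%). For CD8+CX3CR1+ against CD4+ it was -0.12, 5 passing downward (4.89%) and 2 upward (4.47%). For CD8+CX3CR1- against CD4+ it was -0.05, 7 passing downward (9.11%) and 5 upward (6.78%). The counts of every pair with the CD8+CX3CR1- array include Spry1, higher on that array (115). Spry1 passed the floor on that array alone, so its differences are bounds. Between the CD4+ and DN arrays the median was 0, with 1 related gene at least 2-fold lower on the CD4+ array (3.23%) and 0 higher (4.34%).

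Marker lists also differed between the arrays. The CD4 and CD11b DC markers (4 measured) summed to 21849 (CD8+CX3CR1+), 599.9 (CD8+CX3CR1-), 22392 (CD4+) and 17814.5 (DN), lowest on the array where Klf4, Jun and Fosl2 were lowest. The CD8 DC markers (4 measured) summed to 3232, 23833, 3567 and 8551.5 in that order, with the same low and high pairs of arrays as Fos, Dusp1 and Nr4a2. Irf8 and Naaa carry this sum and have these pairs. The other markers do not: Batf3 was 1028, 2570, 2678 and 1668 in that order, and Xcr1 was above the floor on the CD8+CX3CR1- array alone. The 4 plasmacytoid DC markers had their highest summed signal on the CD8+CX3CR1+ array (4682, with 4 of 4 above the floor), where most of the 36 genes were lowest, against 748, 653 and 1572 on the CD8+CX3CR1-, CD4+ and DN arrays. The 5 red pulp macrophage markers summed to 1865, 818, 3842 and 1991 in the order CD8+CX3CR1+, CD8+CX3CR1-, CD4+ and DN, and the 2 monocyte markers measured to 2441, 1877, 7427 and 3374. Single bright genes carry these last sums, and their members differ: Ccr2 was lowest on the CD4+ array (143), Vcam1 was highest (513) on the CD8+CX3CR1- array, and Lyz2 was 1736 and 1652 on the CD8+CX3CR1+ and CD8+CX3CR1- arrays. The part of monocytes and macrophages in these results was not tested. Defining transcripts of T cells (Cd3g), B cells (Cd79a), NK cells (Ncr1) and neutrophils (S100a9, Mpo) lay under the floor on all 4 arrays. Other markers of the same lists did not: Ms4a1 (B cells) was 162.5 to 446, Cd3e (T cells) was 65.8 on CD8+CX3CR1+ and 66.8 on DN, Gzma (NK cells) was 115 and 87.7 on the same arrays, Pax5 (B cells) was 97.1 on CD4+, and S100a8 (neutrophils) was 82.1 on CD8+CX3CR1-.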

How the data were processed

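The deposited table holds 1 intensity per probe set and array, which the authors made with MAS5 (named in the submitters' processing notes) on Affymetrix mouse genome arrays; the trimmed mean was 150.0 on each array, and scanner files were not used here. Probe sets were named through the platform annotation, those with several symbols or none were left out, and a gene's brightest probe set by mean log2 signal stood for it. The floor is the 90th percentile of signal over 127 probe sets of olfactory, vomeronasal, taste, trace amine and keratin-associated genes. Signals under it were raised to it before log2, and genes never above it were left out. Where probe sets were averaged, the mean was taken after this step. A probe set under the floor on both arrays of a pair thus adds no difference and shrinks the average. With 1 array per group no test was made. A difference of at least 4-fold was called, and 2-fold counts are given beside it. All 36 genes are named, and of the related genes those at least 4-fold apart in some pair. The members and gene lists were chosen with earlier results of these data known. Alternatives were quantile normalization, equal-median scaling, other floors, averaged probe sets, and leaving out probe sets that may cross-hybridise; their use on the counts of genes lowest or highest on an array, and on single genes, was added after seeing the data. Python 3.11.15, numpy 2.4.6 and pandas 2.3.3 were used. The scripts were tested on simulated data. Array number limits the precision.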

Additional observations from a re-analysis of the deposited data

How the results depend on the processing

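No 4-fold call changed direction under an alternative. Smaller differences did: between the deposited, quantile and equal-median scalings the sign differed, among the 36 genes, for 9 between CD8+CX3CR1+ and CD4+, 3 between CD8+CX3CR1+ and DN, 9 between CD8+CX3CR1- and CD4+, 1 between CD8+CX3CR1- and DN, 5 between CD4+ and DN, and 0 between CD8+CX3CR1+ and CD8+CX3CR1-. Lowering the threshold from 4-fold to 2-fold raised the count of called genes to 10 (CD8+CX3CR1+ against CD8+CX3CR1-, 13.5% of detected genes), 6 (CD8+CX3CR1+ against CD4+, 9.36%), 10 (CD8+CX3CR1+ against DN, 5.91%), 5 (CD8+CX3CR1- against CD4+, 15.9%), 6 (CD8+CX3CR1- against DN, 10.9%) and 3 (CD4+ against DN, 7.57%). For CD8+CX3CR1- against CD4+ that share of the 36 genes is below that of all detected genes. Averaging probe sets left 2 calls between CD8+CX3CR1+ and CD8+CX3CR1- and 1 between CD8+CX3CR1- and DN. Jun was then at 1.33, Nr4a2 at -1.47 and Fosl2 at -1.18 (log2). The second Fosl2 probe set was near or under the floor, which shrinks its average. With no floor there were 6 calls for CD8+CX3CR1+ against CD8+CX3CR1- (12.3% of all genes) and 1 each for CD8+CX3CR1+ against CD4+ (11.3%) and against DN (8.69%). Leaving out probe sets that may cross-hybridise gave 1 call for CD8+CX3CR1+ against DN, Nr4a2 at -2.74 (log2) in place of -1.94. A weaker Nr4a2 probe set then stood for the gene, with 32.5 on the CD8+CX3CR1+ and 372 on the DN array. The first value is under the floor, so this difference is a bound. No paired analysis was possible because each group has 1 array. The count of genes lowest on the CD8+CX3CR1+ array was between 15 and 21 over the alternatives, and that highest on the DN array between 14 and 16. Without replicate arrays the spread between mice or sorts is unknown, and signals near the floor, as of Egr2, Egr3, Fosb and Myc, give no firm fold.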

Other observations

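The genes named here are from the related list, were below 4-fold and were chosen after their values were seen. On the CD8+CX3CR1- array the NF-kB inhibitor genes Nfkbie and Nfkbiz had their lowest signals. Nfkbie measured 1156.5 (CD8+CX3CR1+), 574 (CD8+CX3CR1-), 1683 (CD4+) and 1888.5 (DN), a range of 3.29-fold. Nfkbiz, which encodes a nuclear cofactor of NF-kB, was 587, 244, 458 and 598 in that order. Csrnp1, an AXIN1-induced nuclear factor, was 879, 320, 381 and 586, highest on the CD8+CX3CR1+ array. Klf13 was 603, 229, 778 and 700.5, lowest on the CD8+CX3CR1- array. Atf4, the main factor of the integrated stress response, ran the other way, at 1001 (CD8+CX3CR1+), 2440.4 (CD8+CX3CR1-), 1213 (CD4+) and 1637 (DN). Irf1 was 813 on the CD8+CX3CR1+ array against 1194, 1779 and 1585. These differences have no replicate check.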
